A study of Caenorhabditis elegans with 2 samples.

Results

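Peaks of SMA-9 lying at piRNA genes were described here, most of them in the piRNA gene clusters of chromosome IV of Caenorhabditis elegans. A peak was a member when its summit, the centre of a deposited peak of fixed width, lay within 200 bp of a gene annotated as a piRNA gene. By this rule 1083 of the 30000 peaks of the pooled list (3.61%) were members, while 3.32% of the bases of the 6 nuclear chromosomes lay within 200 bp of such a gene. The clusters held 908 of the members, the rest of chromosome IV held 76 and the other chromosomes held 99. Cluster 1 spans chrIV:4800001-6600000 with 2658 piRNA genes and 233 members, and cluster 2 spans chrIV:13600001-17300000 with 11510 piRNA genes and 675 members (ce11). A cluster was a run of at least 5 bins of 100 kb with 50 or more piRNA genes each, bridging gaps of up to 2 bins.

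The data come from chromatin immunoprecipitation and sequencing (ChIP-seq) directed at an eGFP fusion of SMA-9. The chromatin was that of whole worms of mixed sex at the L2 larval stage, in 1 group of 2 biological replicates. The strain, OP130, has the allele unc-119(ed3) on chromosome III and carries the integrated transgene wgIs130, from which the tagged protein comes. The labels list no change at the endogenous sma-9 locus, and name sma-9 as the antibody target. With 1 group there was no comparison between conditions. Peaks of the same libraries are not replicates of a condition, so no p-value was computed. Sets of peaks were described by counts, medians and exact 95% (Clopper-Pearson) intervals, which cover counting error over peaks only. Because whole larvae were used, a strong signal in few cells and a weak signal in many cannot be told apart.

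SMA-9, a worm relative of the Drosophila zinc finger factor Schnurri, works beside SMADs in BMP-like signalling. The piRNAs of C. elegans, called 21U-RNAs, are short germline RNAs that begin with uridine and are bound by the PIWI Argonaute PRG-1, which uses them to silence foreign and repetitive sequence. Most come from tiny independent transcription units packed in AT-rich stretches of chromosome IV, between and inside coding genes, each with a short upstream element known as the Ruby motif. Dedicated nuclear factors such as PRDE-1 and the snRNA activator subunit SNPC-4 gather at these stretches in the germline.

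The piRNA genes nearest the summits of strong members are shown to let the upstream element be seen beside the peaks. Each line gives the 60 bases before the piRNA and then its 21 bases, 5′ to 3′ on the strand of the piRNA gene (RefSeq sequence of WBcel235, the same coordinates as ce11). Capitals mark the core of the Ruby motif, searched as CTGTTTCA.
21ur-14603 (chrIV:15728540-15728620, minus strand): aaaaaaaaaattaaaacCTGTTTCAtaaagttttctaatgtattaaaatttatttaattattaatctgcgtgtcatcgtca
21ur-7603 (chrIV:17159182-17159262, plus strand): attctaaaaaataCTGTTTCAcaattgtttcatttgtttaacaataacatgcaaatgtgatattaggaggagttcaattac
21ur-7069 (chrIV:14169620-14169700, minus strand): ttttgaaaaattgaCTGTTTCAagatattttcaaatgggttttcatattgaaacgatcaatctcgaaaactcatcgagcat
21ur-11186 (chrIV:5881548-5881628, plus strand): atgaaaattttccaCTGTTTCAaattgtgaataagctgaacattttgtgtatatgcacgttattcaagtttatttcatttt
21ur-9365 (chrIV:5886257-5886337, plus strand): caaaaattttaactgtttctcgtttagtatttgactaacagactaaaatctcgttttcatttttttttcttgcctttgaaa
21ur-13840 (chrIV:15934403-15934483, minus strand): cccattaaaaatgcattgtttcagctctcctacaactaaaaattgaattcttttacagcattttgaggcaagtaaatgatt
21ur-6650 (chrIV:17173992-17174072, minus strand): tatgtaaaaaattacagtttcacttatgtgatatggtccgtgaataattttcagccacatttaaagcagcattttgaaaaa
21ur-11069 (chrV:13081328-13081408, minus strand): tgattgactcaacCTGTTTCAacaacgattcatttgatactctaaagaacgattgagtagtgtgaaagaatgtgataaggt
21ur-11320 (chrIV:11275568-11275648, plus strand): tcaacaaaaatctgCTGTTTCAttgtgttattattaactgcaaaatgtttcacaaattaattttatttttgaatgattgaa
The core began 43 bases before the piRNA in 21ur-14603, 47 in 21ur-7603 and 46 in 21ur-7069 and 21ur-11186. The exact letters were not found before 21ur-9365, 21ur-13840 and 21ur-6650. Shown are all 6 genes with the exact core, and 3 of the 17 without it, among the 23 genes nearest the strongest members (15 in the clusters and 8 outside). The core was found before 4 of the 15 and 2 of the 8. The first 7 of the genes shown belong to the strongest cluster members, and the last 2 to the strongest members outside the clusters. Over all 14168 cluster piRNA genes, 34.9% had the exact core within 60 bases, most often starting 46 bases before the piRNA, and 75.8% had its inner letters GTTTC. Of the 546 piRNA genes on the rest of chromosome IV 29.5% had the exact core, and of the 649 on other chromosomes 6.78%. The first base was T in 96.2% of the cluster genes, and no 21-base sequence was found more than once among all 15363 piRNA genes.

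The window of 200 bases around a summit shows what lies under the peak itself. The pair below is the strongest cluster member and the strongest member of all, on the plus strand, with the Ruby core (or its reverse complement TGAAACAG) and GAGAGA (or TCTCTC) in capitals.
window at 21ur-14603 (chrIV:15728606-15728805, plus strand): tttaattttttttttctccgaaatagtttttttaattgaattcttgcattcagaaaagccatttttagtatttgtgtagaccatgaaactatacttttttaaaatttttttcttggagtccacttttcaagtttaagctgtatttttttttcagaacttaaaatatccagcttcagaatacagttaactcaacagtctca
window at 21ur-11069 (chrV:13081251-13081450, plus strand): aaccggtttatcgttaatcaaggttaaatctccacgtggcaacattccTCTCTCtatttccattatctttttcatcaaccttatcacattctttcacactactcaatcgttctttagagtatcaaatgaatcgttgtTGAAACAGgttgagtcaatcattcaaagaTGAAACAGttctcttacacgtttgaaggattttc
The window at 21ur-14603 had a GC content of 26.0% and neither motif. Its summit lay 146 bp upstream of the piRNA gene. The window at 21ur-11069 had a GC content of 35%, 2 copies of the Ruby core and 1 of the GAGAGA element.

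In the pooled list and replicate 1, summits were denser near piRNA genes than elsewhere in the clusters. In replicate 2 the difference was small. In the clusters, 51.9% of bases lay within 200 bp of a piRNA gene. The same stretch held 60.9% of the cluster summits of the pooled list (908 of 1492), 63.5% of those of replicate 1 (1068 of 1683) and 53.8% of those of replicate 2 (742 of 1380). No interval was taken for these shares. As a density, the pooled list had 318 summits per Mb near piRNA genes and 221 in the rest of the clusters. Replicate 1 had 374 near and 232 in the rest, while replicate 2 had 260 near and 241 in the rest. Each list averaged 299 summits per Mb over the 6 chromosomes. In the pooled list the density near piRNA genes was close to that genome-wide level, and the rest of the clusters lay below it.

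The gap was wider in cluster 2 than in cluster 1. In cluster 1 the pooled list had 332 summits per Mb near piRNA genes and 296 in the rest, and in cluster 2 it had 314 near and 167 in the rest. In replicate 2, cluster 1 had 311 near and 308 in the rest, and cluster 2 had 243 near and 194 in the rest. The plot of summit density shows the near stretch on top in all 6 list and cluster combinations, by amounts that range widely. These are not 6 separate observations, since the pooled list was made from the reads of both replicates. In replicate 2, the near stretch of cluster 1 held 39.2% of the summits on 39.0% of the bases, so the 2 were level there. Coding content differs within the clusters too, so the densities were also taken by feature. Between coding genes the pooled list had 309 summits per Mb near piRNA genes and 197 farther away. In introns it had 351 near and 259 farther, and in coding exons 251 near and 215 farther.

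**Figure D1:**
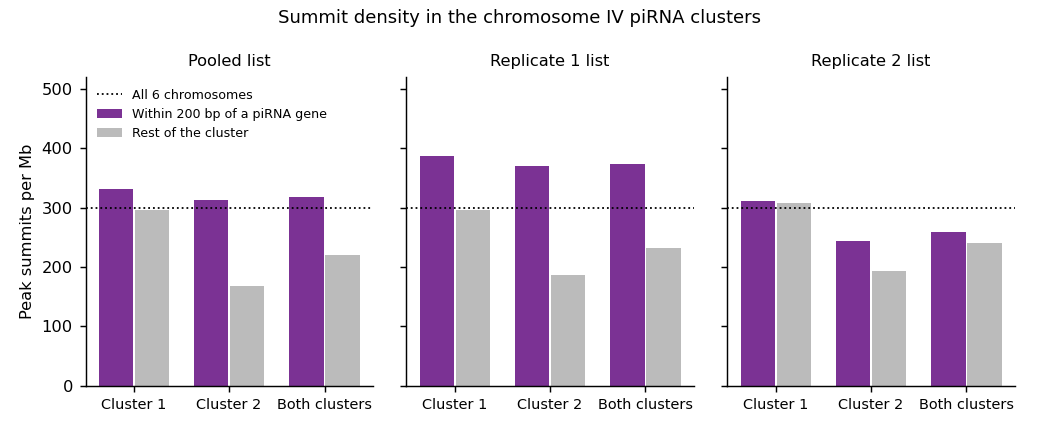
Peak summits per Mb (y axis) in cluster 1, cluster 2 and both, for the stretch within 200 bp of a piRNA gene (purple) and the rest of the cluster (grey), in the pooled list and each replicate list; bars have no error because each is 1 list. The dotted line is the mean over all 6 chromosomes, 299 per Mb; in replicate 2 cluster 1 the bars are nearly level, at 311 and 308.

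Base composition differed by membership, much as it did in the sequence the rule admits. Windows of 200 bp tiled over the clusters had a mean GC content of 29.6% when centred within 200 bp of a piRNA gene. Those centred farther away had 36.1%. The 200 bp windows of cluster members had a mean GC content of 29.2 ± 5.59% (SD over 908 windows), those of the other 584 cluster summits 35.2 ± 7.14%, and those of all 30000 pooled peaks 34.7 ± 6.84%. Over the peaks of each list, mean GC content was 33.9% in replicate 1 and 36.1% in replicate 2, so replicate 1, with more members, had the more AT-rich list. Whether base composition has a part in the density of members in either list was not tested.

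Cluster members were of middling signal. The signal is the authors' value per peak, with no scale stated, and its percentile within a list runs up to 100 for the strongest peak. The median signal of the cluster members was 13.99 in the pooled list, against 14.07 for the other cluster summits and 14.15 for all peaks. As percentiles the medians were 48.3 for cluster members and 49.1 for other cluster summits. Members in cluster 1 had a median percentile of 48.9 and those in cluster 2 of 47.7. In the list of replicate 1 the median percentile was 51.2 for cluster members and 49.2 for other cluster summits, and in replicate 2 it was 46.3 and 46.8. These gaps between members and other cluster summits were smaller than the gap between the replicate lists for the members themselves.

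The histogram of signal percentiles shows how flat the members' distribution was. Among the 1000 strongest pooled peaks, which are 3.33% of all pooled peaks, stood 24 cluster members (2.64%, interval 1.70 to 3.91) and 24 other cluster summits (4.11%, interval 2.65 to 6.05). Among the 5000 strongest, 16.7% of all, stood 139 cluster members (15.3%, interval 13.03 to 17.8) and 104 other cluster summits (17.8%, interval 14.8 to 21.2). Both intervals for the members include the share of all pooled peaks. In the list of replicate 1, 188 of 1068 cluster members were among its 5000 strongest (17.6%, interval 15.4 to 20.02). In that of replicate 2 it was 87 of 742 (11.7%, interval 9.50 to 14.3), which lies below the 16.7% of all peaks of a list. The 1234 pooled peaks within 200 bp of another class of noncoding RNA gene, labelled ncRNA in the annotation, had a median percentile of 57.0 and 102 peaks (8.27%) among the 1000 strongest. Peaks at piRNA genes were thus placed lower than peaks at that class. Mean GC content was 29.2% for the cluster members and 38.4% for that class, and the part of GC content in this gap was not tested.

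**Figure D2:**
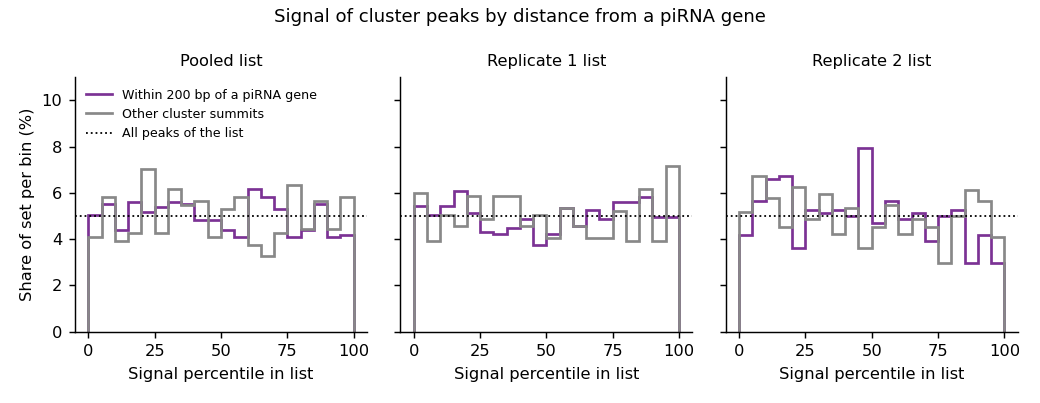
Share of each set (y axis, %) by bin of 5 signal percentiles (x axis, 100 = strongest), for cluster members (purple) and other cluster summits (grey), in the pooled list and each replicate list; the dotted line is the level of all peaks of the list. Members have no heaped end in any list, and in replicate 2 their share lies below the line at the strong end.

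Within bands of GC content the members stayed near the middle. Cluster members with GC content under 25% had a median percentile of 45.6 (n = 213), against 47.0 for all peaks in that band (n = 1686). From 25% to 30% the values were 46.2 (n = 338) and 49.2 (n = 5719), and from 30% to 35% they were 51.7 (n = 220) and 51.1 (n = 8421). At 35% or more they were 48.9 (n = 137) and 50.1 (n = 14174).

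No cluster member was in the thresholded list, the short list that the authors derived from the pooled and replicate lists. Of all pooled peaks 151 (0.503%) overlapped one of its 125 peaks by at least 1 bp. Among the cluster members the count was 0 of 908, which allows a share of up to 0.330% by 3 counts of the total (exact upper bound 0.405%), and among the other cluster summits it was 11 of 584 (1.88%, interval 0.944 to 3.35). The clusters did hold 8 thresholded summits, but these lay from 327 to 8378 bp from the nearest piRNA gene and had GC contents from 39.0% to 56.5%. The strongest stood at rank 9 of the pooled list, 443 bp from 21ur-865 and between coding genes. Others lay in introns of lag-1, which encodes the DNA-binding factor of Notch signalling (rank 28), of skn-1, a stress-response factor related to Nrf (rank 36), and of the nuclear hormone receptor gene nhr-46 (rank 98). By distance band, 0 of the 908 cluster summits up to 200 bp from a piRNA gene overlapped a thresholded peak, against 1 of 83 from 201 to 250 bp, 3 of 176 from 251 to 500 bp and 7 of 325 beyond that. These 11 overlaps stand for the 8 thresholded summits. Those at ranks 3091, 8189 and 17336 are weaker neighbours that only touch a thresholded peak already counted. The 1 from 201 to 250 bp is the neighbour of the peak at rank 9, with its summit 241 bp from 21ur-865. The lowest signal in the thresholded list was 34.6, and the highest of a cluster member was 32.3.

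The 1 member with a thresholded peak lay outside the clusters, at 21ur-11069 on chromosome V (summit V:13081351). Its signal was 44.5 in the pooled list, where it ranked 59, 32.3 in replicate 1, where it ranked 48, and 11.2 in replicate 2, where it ranked 1179. Its summit was 3 bp from the piRNA gene and between coding genes, and no other piRNA gene lay within 1 kb. It was high in both replicates, though less far up in replicate 2.

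Most of the strongest cluster members ranked higher in replicate 1 than in replicate 2. The first was at 21ur-14603 in cluster 2 (summit IV:15728706, between coding genes), with a signal of 32.3 and rank 162 in the pooled list, 25.3 and rank 110 in replicate 1, and 4.89 and rank 27299 in replicate 2. It was near the top of one replicate and near the bottom of the other. The next, at 21ur-9365 in cluster 1, lay in an intron of glf-1, which encodes the UDP-galactopyranose mutase used in surface glycan synthesis. Its signal was 31.1 (rank 190) in the pooled list, 17.6 (rank 726) in replicate 1 and 12.2 (rank 648) in replicate 2, so both replicates placed it high. The peak at 21ur-13840 had 29.99 (rank 224) in the pooled list, 16.6 (rank 1058) in replicate 1 and 8.08 (rank 6565) in replicate 2. The peak at 21ur-3019 had 29.8 (rank 232), 19.1 (rank 425) and 9.12 (rank 3782) in the same lists, and the one at 21ur-10181, in an intron of ccg-1, had 28.9 (rank 262), 20.2 (rank 299) and 7.72 (rank 7875). Each of these 3 was placed higher in replicate 1 than in replicate 2.

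Over the 15 strongest cluster members the same lean was seen. All but 3 had a peak in both replicate lists (12 of 15). Of the 15, 12 were among the 1000 strongest of replicate 1 and 2 among the 1000 strongest of replicate 2. The same counts were not taken for other pooled peaks of like rank, so the lean cannot be called particular to cluster members. Over all matched cluster members the median log2 ratio of replicate 1 to replicate 2 was 0.62, near the 0.60 of all matched peaks. Those at 21ur-6650 (rank 284), 21ur-7603 (rank 356) and 21ur-11186 (rank 745) had no overlapping peak in replicate 2. Among the 908 cluster members, 2 were in the 1000 strongest of both replicates, against 0.463% of all pooled peaks (139 of 30000), and these were 21ur-9365 and 21ur-13200 (pooled rank 532, replicate 1 rank 80, replicate 2 rank 464). Of the 15, 11 were in cluster 2 and 12 lay between coding genes. The summit was upstream of the nearest piRNA gene in 9 of the 15. Their windows had GC contents from 22.0% to 43.0% with a median of 27.0%. The Ruby core was in 4 of the 15 windows and GAGAGA in 3.

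Outside the clusters the members were few and mixed. Of the 99 on other chromosomes, 32 were on X, 28 on V, 15 on II, 14 on III and 10 on I. Those 99 had a median percentile of 46.4 and the 76 on the rest of chromosome IV had 59.5. The last value did not hold in both replicates, where members on the rest of IV had medians of 46.8 (replicate 1, n = 72) and 59.0 (replicate 2, n = 69). Among the 1000 strongest pooled peaks stood 6 of the 99 (6.06%, interval 2.26 to 12.7) and 2 of the 76 (2.63%, interval 0.320 to 9.18). After 21ur-11069 the strongest were at 21ur-11320 (rank 186), 21ur-14191 (rank 246) and 21ur-13303 (rank 347). The peak at 21ur-11320 lay in an intron of gtl-2, a TRPM-type cation channel gene, and ranked 1123 in replicate 1 and 347 in replicate 2. The remaining 4 of the 8 strongest were at 21ur-12205 near the start of the ceramide glucosyltransferase gene cgt-3 (rank 467), 21ur-5644 (rank 660), 21ur-13343 in a coding exon of srz-13 (rank 857) and 21ur-13803 (rank 864). The peak at 21ur-13303 ranked 308 in replicate 1 and had no overlapping peak in replicate 2. The one at 21ur-12205 had none in replicate 1 and ranked 344 in replicate 2.

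Fewer than 1 in 3 cluster members were found in both replicate lists, near the share of all peaks, and the signals of the matched ones were almost unrelated between replicates. Of the cluster members, 663 overlapped a peak of replicate 1 (73.0%, against 69.5% of all pooled peaks) and 446 overlapped a peak of replicate 2 (49.1%, against 56.7%). Both lists held 277 of them (30.5%, interval 27.5 to 33.6), against 33.8% of all pooled peaks, and 76 (8.37%) were in neither list. Among the 5000 strongest of both lists stood 17 cluster members (1.87%, interval 1.09 to 2.98), against 2.44% of all pooled peaks and 22 of the other 584 cluster summits (3.77%). Across the 277 matched members, Spearman's rho between the signals was 0.021, and Pearson's r on the log2 scale was 0.075. Across all 10139 matched peaks these were 0.077 and 0.184. They were 0.172 and 0.366 for the other cluster summits, and 0.368 and 0.467 for the peaks at ncRNA-class genes. Pooled signals ran up to 75.3 and 84.7 in these sets, but only to 32.3 for cluster members. The part of this narrower range in the lower correlation was not tested. Among the members, rho was -0.111 in cluster 1 and 0.071 in cluster 2. The points share the 2 libraries and were all matched to 1 pooled list. Of the 277 members, 44 share both replicate peaks with another, and over the 255 distinct pairs of replicate peaks rho was 0.023 and r was 0.070. The scatter of matched signals shows no trend.

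**Figure D3:**
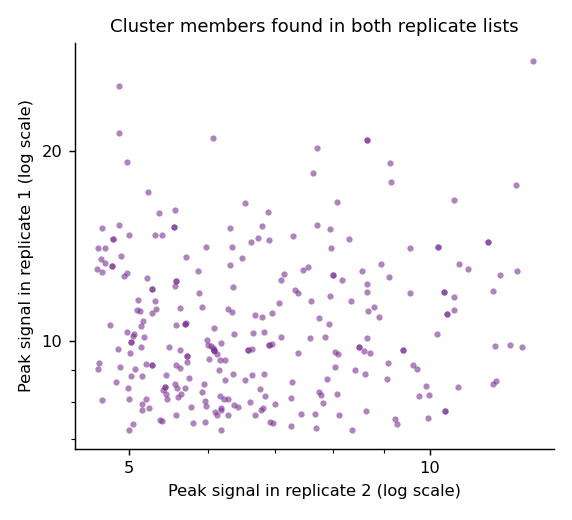
Peak signal in replicate 1 (y axis, log scale) against replicate 2 (x axis, log scale) for the 277 cluster members with a peak in both replicate lists; each point is a member. The points show no trend, and the point at the upper left with a signal of 25.3 in replicate 1 is 21ur-14603.

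The extremes of the ratio show both directions. Matched cluster members had a median log2 ratio of replicate 1 to replicate 2 of 0.62 (SD 0.51), and all matched peaks had 0.60 (SD 0.53). The median signal over a whole list was 9.50 in replicate 1 and 6.34 in replicate 2. The highest ratios among all members were at 21ur-14603 (2.37), 21ur-738 (2.13), 21ur-5621 (1.95), 21ur-13769 (1.79) and 21ur-7903 (1.72). The lowest were at 21ur-15545 (-0.86), 21ur-15532 (-0.60), 21ur-7065 (-0.47), 21ur-15342 (-0.44) and 21ur-7660 (-0.44). All 5 of the highest lay in the clusters, and of the 5 lowest only 21ur-7660 did. The medians differed little by place, at 0.62 for matched cluster members, 0.54 on the rest of chromosome IV and 0.63 on other chromosomes. None of these ratios was scaled by the list medians. Most of the members matched in both lists lay in the clusters to begin with (277 of 332).

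At the level of the genes, a minority of piRNA genes had a summit close by. The share for random stretches of like length was not taken. In the pooled list, the summit density near cluster piRNA genes was itself close to the genome-wide level (318 and 299 per Mb). In the pooled list, 1856 of the 14168 cluster piRNA genes (13.1%, interval 12.5 to 13.7) had a summit within 200 bp. The share was 15.4% in replicate 1 and 10.7% in replicate 2, and 404 genes (2.85%) had a summit in both replicate lists. Outside the clusters, 14.8% of the 546 genes on the rest of chromosome IV and 14.8% of the 649 on other chromosomes had a pooled summit within that distance. In the pooled list the share of genes with a summit was thus about as high for scattered piRNA genes as for clustered ones. In replicate 1 it was 13.7% on the rest of chromosome IV and 15.4% on other chromosomes. In replicate 2 it was 13.6% (interval 10.8 to 16.7) and 13.3% (interval 10.7 to 16.1), against 10.7% in the clusters (interval 10.2 to 11.2). These intervals overlap, and they count neighbouring genes that share a summit as separate. Since 1 summit can lie near several piRNA genes, genes with a summit outnumber the members.

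Within the clusters, members stood among more piRNA genes than other summits, which the rule itself favours. Cluster members had a median of 8 piRNA genes within 1 kb (maximum 21) and other cluster summits had 2. Signal did not follow that density in a steady way. With the members in 5 groups of about equal size by piRNA genes within 1 kb, the pooled median percentile was 54.3 in the sparsest group, then 48.5, 46.3 and 51.4, and 38.7 in the densest. In replicate 1 the medians were 47.7, 53.1, 49.3, 55.9 and 52.8, and in replicate 2 they were 47.7, 47.3, 46.1, 48.3 and 44.5. The densest group was the lowest in the pooled list and in replicate 2, but not in replicate 1. Mean GC content was 30.04% in the sparsest group of the pooled list and 27.7% in the densest. Across the 908 members, rho of density and signal was -0.040 in the pooled list. It was 0.061 across the 1068 members of replicate 1 and -0.017 across the 742 of replicate 2, each set sharing 1 list.

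**Figure D4:**
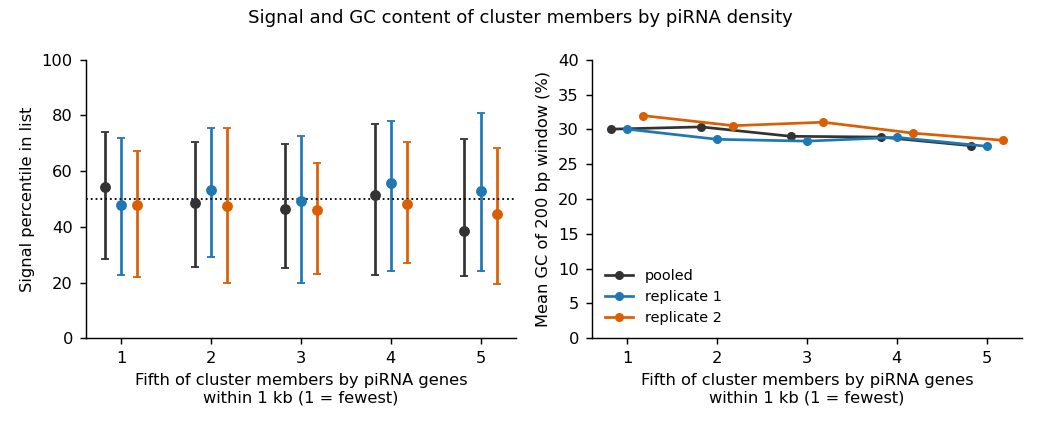
Left, median signal percentile (points) with the lower and upper quartiles (bars) of cluster members in 5 groups by piRNA genes within 1 kb, for each list; right, the mean GC content of their 200 bp windows in %. The quartile bars overlap widely in every group and list, and the densest group of the pooled list has a median of 38.7.

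The members with most piRNA genes around them had ranks from 6328 to 20987. The summit at 21ur-7087 had 21 piRNA genes within 1 kb and rank 20987 in the pooled list. Those at 21ur-6154 and 21ur-13965 had 20 each and ranks 14358 and 14839, and those at 21ur-14648 and 21ur-9865 had 19 each and ranks 6328 and 7836. The summits at 21ur-7087 and 21ur-6154 both overlap the same peak of replicate 2 (rank 1375).

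Summits showed no fixed place relative to the piRNA. Of the 908 cluster members, 461 lay upstream of the nearest piRNA gene (50.8%, interval 47.5 to 54.1), 53 inside it and 394 downstream. In replicate 1 the upstream share was 47.3% and in replicate 2 it was 45.6%. The median distance to the gene was 68 bp in the pooled list. Around the 5′ ends of all cluster piRNA genes, the densest bin of 50 bp in the pooled list ran from 100 to 51 bp upstream, at 1.46 times the cluster mean. The same bin was at 1.38 in replicate 1 and 1.05 in replicate 2. In the plot of summit density around 5′ ends, the bins of replicate 2 ran from 0.861 to 1.19 times the cluster mean. In the pooled list a bin farther upstream reached 1.33, and the densest bin of replicate 1 was downstream of the 5′ end, at 1.42. At the edge of the rule, the summits at 21ur-9929, 21ur-6836 and 21ur-379 lay 198, 199 and 199 bp away with ranks 5353, 19288 and 18862. Just outside it, those nearest 21ur-8699 and 21ur-4939 lay 201 and 202 bp away with ranks 19400 and 18809.

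**Figure D5:**
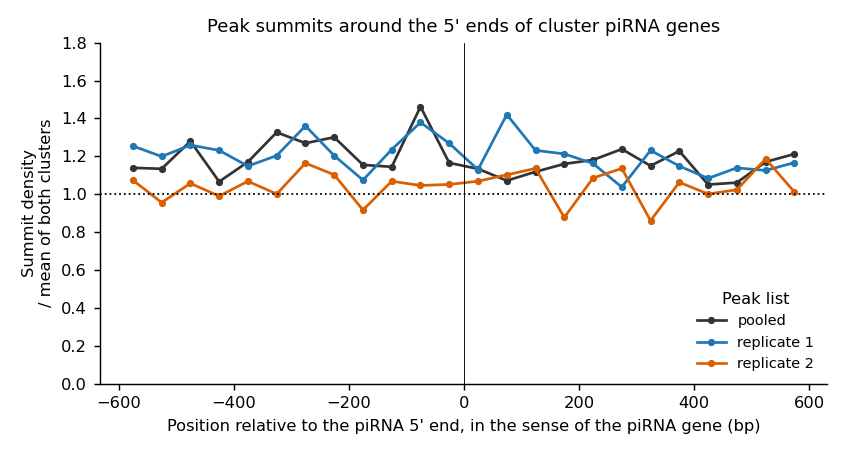
Summit density divided by the mean of both clusters (y axis) in bins of 50 bp around the 5′ ends of the 14168 cluster piRNA genes (x axis, bp, negative = upstream), for the pooled list and each replicate list. The pooled line peaks at 1.46 in the bin from 100 to 51 bp upstream, where replicate 2 is at 1.05.

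The Ruby core was common under the members, at the level of the sequence they lie in. It was present on either strand in 237 of the 908 windows of 200 bp (26.1%, interval 23.3 to 29.1), against 25 of 584 windows of other cluster summits (4.28%) and 2.06% of all pooled peaks. Of the 14259 windows of that length tiled over the clusters with their centre within 200 bp of a piRNA gene, 27.5% held it, and of the 13241 with a centre farther away 3.81%. Over tiled windows of the 6 chromosomes the share was 2.00%. The members' share was thus near that of the surrounding sequence in these windows. In replicate 1 the core was in 28.1% of member windows and in replicate 2 in 25.3%. Members with the core had a median percentile of 50.8 and those without it 46.3, with mean GC contents of 28.2% and 29.6%. The same medians for other peaks are not given here, so this gap cannot be called particular to members. Of the 24 cluster members among the 1000 strongest peaks, 20.8% had the core, against 26.2% of the rest. So few members are not enough to read a difference from these shares.

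The shares of windows with the other elements were lower for members than for the other cluster summits, and near those of the tiled sequence where that is given. GAGAGA, the repeat bound by GAGA-type factors in flies, was in 5.40% of member windows, 13.5% of those of other cluster summits and 10.4% of all. Tiled windows near piRNA genes held it in 5.96% and tiled windows of the rest of the clusters in 11.1%. The 49 members with GAGAGA had a median percentile of 62.5 and a mean GC content of 32.7%. The medians of other peaks with GAGAGA are not given beside it, so this value cannot be called particular to members. GTCT, the short SMAD-binding box, was in 50.1% of member windows, 60.8% of those of other cluster summits and 60.7% of all, and in 49.4% of tiled windows near piRNA genes. The E-box CACGTG was in 1.65%, 3.77% and 3.403% of the same 3 sets, and GGCGCC in 0.330%, 1.03% and 1.27%. GGCGCC and CACGTG are their own reverse complements, and the other motifs were searched on both strands with overlaps between motifs allowed.

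Most cluster members lay between coding genes (525 of 908, 57.8%). Of the cluster members, 383 lay inside a coding gene (42.2%, interval 38.9 to 45.5), against 60.8% of other cluster summits and 61.3% of all peaks. Of the cluster bases within 200 bp of a piRNA gene 40.5% lay inside coding genes, and of the bases farther away 56.0%, so the members' share was near that of the sequence the rule admits. Introns held 301 of them (33.1%) and coding exons 64 (7.05%), against 23.6% of other cluster summits in coding exons. A summit from 500 bp upstream to 200 bp downstream of a coding start was found for 77 members (8.48%), 98 of the other cluster summits (16.8%) and 17.6% of all peaks. The share of cluster bases in that range was not taken. Members at such a start had a median percentile of 51.7 and the remaining members 48.2. The 383 members made 386 pairs with a host, since host genes can overlap, and in 372 pairs the nearest piRNA gene began inside the host. It ran on the strand of the host in 176 of these and on the other strand in 196 (47.3%, interval 42.1 to 52.5, on the host's strand). Of all piRNA genes in coding genes of the clusters, 48.6% ran on the host's strand.

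The 383 members were spread over 193 host genes, of which 120 had 1 member, 40 had 2 and 33 had 3 or more. The hosts with most members are long genes with many piRNA genes inside them. The netrin receptor gene unc-5, which guides axons and migrating cells, had 12 members among 97 piRNA genes in 32.7 kb, and 2 of them were in both replicate lists. The gene of the leucine-rich repeat scaffold SOC-2, which acts in RAS signalling, had 10 members in 25.5 kb, and the sodium leak channel gene unc-77 had 10 in 26.6 kb. The best pooled ranks there were 6414 at unc-5, 10596 at soc-2 and 4317 at unc-77, so none of the 3 had a member among the 1000 strongest peaks. Only 2.64% of all cluster members (24 of 908) stood there, so this absence cannot be called particular to these hosts. The potassium channel gene egl-23 and the p120 catenin gene jac-1 had 9 members each, with best ranks of 2662 and 10647, and so did Y64G10A.7 and Y105C5A.15. The forkhead gene fkh-7, the potassium-chloride cotransporter gene kcc-2 and Y37A1A.4 had 7 each, as had tag-273 and eps-8, which tie with them. Of fkh-7, kcc-2 and Y37A1A.4, the last had the best rank, 1907.

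Genes of the piRNA pathway were looked at as a list of 24, of which 22 were matched in the annotation. Of these, 3 had a pooled summit from 500 bp upstream to 200 bp downstream of a start, while 24.6% of all 19973 coding genes had one. None of the 3 was in the thresholded list. The summit at prde-1, whose product is needed for transcription of the clustered piRNA genes, had a signal of 24.4 and rank 885, with rank 331 in replicate 1 and no overlapping peak in replicate 2. The summit at unc-130, a forkhead factor gene, had 19.1 and rank 4217, with rank 6203 in replicate 1 and 19234 in replicate 2. The summit at isw-1, a chromatin remodeller gene, had 11.5 and rank 26758, with no overlapping peak in replicate 1 and rank 26850 in replicate 2. No summit was found at the starts of prg-1, snpc-4 or the remaining matched genes of the list, which include the tofu and pid genes, parn-1, henn-1, hrde-1, wago-1 and csr-1.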

How the data were processed

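The authors deposited peak lists of eGFP-tagged SMA-9 ChIP-seq for each replicate and for pooled reads, as relaxed lists of peaks and background in ce11 made for the irreproducible discovery rate procedure, with a thresholded list derived from them. The signal in column 7 is the authors' deposited value per peak, with no scale stated, and was compared within a list by rank or percentile and between replicates by ratio and correlation over matched peaks. The score in column 9, also deposited by the authors, is below 0 for 68.6% of pooled peaks and served only as an alternative ranking. The sources used here do not give the aligner, the peak caller or the rate threshold. Each relaxed list has 30000 peaks of a single width, and read depth is unknown. Controls and coverage were not used here.

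Summits were annotated with Ensembl release 115 (WBcel235), and bases were read from RefSeq's FASTA of that build. Overlap meant at least 1 bp. No test over peaks was run. Counting steps were tested on simulated data. Alternatives covered distance limits, each replicate list taken alone, column 9, joined peaks, cluster limits and windows. The 2 GC settings and the distinct pairs of replicate peaks were added after the data were seen. The members, the lists and the rule for named members were chosen with earlier results of these data known. That rule takes members with a thresholded peak, the 15 strongest in the clusters and 8 outside, the 5 with most piRNA genes, the 5 highest and 5 lowest replicate ratios, the 10 hosts with most members and pathway genes with a summit. The members singled out at the distance limit, 21ur-865, lag-1, skn-1, nhr-46, tag-273 and eps-8 were named after their values were seen. Python 3.11.15, numpy 2.4.6, pandas 2.3.3, scipy 1.17.1 and matplotlib 3.10.9 were used.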

Additional observations from a re-analysis of the deposited data

How the results depend on the processing

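The number of members was 63 with the summit inside the piRNA gene and 719 within 100 bp, against 1083 within 200 bp. The median percentile of cluster members ranged from 46.2 to 51.7 over all alternatives. Their share was 2.64% for the 1000 strongest peaks and 48.0% for the 15000 strongest. For the 5000 strongest it was 11.7% in the list of replicate 2 alone and 17.6% in that of replicate 1 alone. These are the values of the deposited replicate lists, as the pooled list was not remade. Taking the 500 strongest pooled peaks in place of the thresholded list gave 1.48% of members, against 1.67% of all peaks. The share of cluster members in both replicate lists was 16.1% with summits within 100 bp (17.2% of all peaks) and 1.87% for the 5000 strongest of each. The mean number of piRNA genes per kb around cluster members was 4.10 within 1 kb, 4.38 within 500 bp and 3.82 within 2 kb. Within 1 kb it was 3.90 in the list of replicate 2 alone and 4.04 in that of replicate 1 alone. Inside coding genes, introns alone gave 33.1% and exons 9.03%. The Ruby core was found in 13.9% of windows of 100 bp and 47.7% of windows of 400 bp, and its inner 5 letters in 75.3%. Limits on distance, rank, feature and window move these values by construction. For the differences between the replicate lists the cause was not tested. No paired analysis was possible because there is only 1 group. Read depth is unknown, every list is cut at 30000 peaks, and weak peaks of these lists are by design mixed with background.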
